A study of Mus musculus with 6 samples.

Results

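The genes described here are those of the aryl hydrocarbon receptor (AHR) axis together with Maf: Ahr, Ahrr, Arnt, Tiparp, Cyp1a1, Cyp1b1 and Maf. They were taken from the deposited table by gene name. All 7 were found, as 7 of 38483 genes and 26 of 93480 transcripts, by a rule that uses no measured value. RNA came from spleen T cells of mice on the B10.RIII background, isolated as CD4+CD62L+ and kept for 3 days in Th17-polarizing medium. The first group is IL-17A-/- Knockout (KO) and the second IL-17A+/+ wild-type (WT), with 3 libraries each, numbered 1 to 3. Both groups had the same medium: IL-6 (10 ng/ml), IL-23 (10 ng/ml) and TGF-β (1 ng/ml), with antibodies that block IFN-γ and IL-4 (10 μg/ml of each). The labels call the libraries biological replicates. They do not say whether cells of several mice were pooled or what a replicate number marks. The deletion is in the whole animal, so the cells had lacked the cytokine before culture as well as in it.

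AHR is a ligand-activated transcription factor that rests in the cytoplasm with chaperones, enters the nucleus when it binds compounds such as tryptophan derivatives, and pairs with ARNT on DNA. Its targets include the P450 enzymes CYP1A1 and CYP1B1, which can break down its ligands, and its own brakes, AHRR and TIPARP. In Th17 cultures AHR is known for driving Il22 and for raising the output of the Th17 state. MAF (c-MAF) is a leucine zipper factor of helper T cells, best known for turning on Il10 and Il21.

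AHR with ARNT reads the core letters GCGTG, so the promoters of the members show where that core lies next to the start of each gene. The sequences below are the 250 bases before the start of 5 members, 5′ to 3′, from RefSeq on GRCm38.p6, with each GCGTG, or CACGC where it lies on the other strand, in capitals. Of the 7 members, 5 had an entry in the promoter table, and Ahr and Maf did not. The windows are chr9:57697363-57697612 for Cyp1a1 (plus strand), chr17:79715062-79715311 for Cyp1b1 (minus), chr13:74292332-74292581 for Ahrr (minus), chr3:65528197-65528446 for Tiparp (plus) and chr3:95434140-95434389 for Arnt (plus).
Cyp1a1: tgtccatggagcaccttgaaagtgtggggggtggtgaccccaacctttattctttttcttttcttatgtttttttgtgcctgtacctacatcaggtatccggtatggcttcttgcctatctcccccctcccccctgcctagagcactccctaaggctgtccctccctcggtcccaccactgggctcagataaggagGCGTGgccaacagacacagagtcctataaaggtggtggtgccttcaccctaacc
Cyp1b1: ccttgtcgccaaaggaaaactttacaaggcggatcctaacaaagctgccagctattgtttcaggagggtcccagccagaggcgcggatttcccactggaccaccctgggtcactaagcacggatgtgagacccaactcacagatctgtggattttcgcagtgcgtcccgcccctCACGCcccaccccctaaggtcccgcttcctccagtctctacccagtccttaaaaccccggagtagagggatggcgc
Ahrr: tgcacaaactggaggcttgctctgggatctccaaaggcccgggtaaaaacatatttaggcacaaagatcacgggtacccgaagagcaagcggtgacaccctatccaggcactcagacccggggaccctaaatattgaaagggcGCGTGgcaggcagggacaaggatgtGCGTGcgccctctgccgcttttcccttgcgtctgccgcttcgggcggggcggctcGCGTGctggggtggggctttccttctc
Tiparp: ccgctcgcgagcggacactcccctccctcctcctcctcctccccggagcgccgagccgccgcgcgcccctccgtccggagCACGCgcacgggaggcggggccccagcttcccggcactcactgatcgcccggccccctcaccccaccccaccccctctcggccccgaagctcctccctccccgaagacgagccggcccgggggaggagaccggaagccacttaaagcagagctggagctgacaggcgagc
Arnt: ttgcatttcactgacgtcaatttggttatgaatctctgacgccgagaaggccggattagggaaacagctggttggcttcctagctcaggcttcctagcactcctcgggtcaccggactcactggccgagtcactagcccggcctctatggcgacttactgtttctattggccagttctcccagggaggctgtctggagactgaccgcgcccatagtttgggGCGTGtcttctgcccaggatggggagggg

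All 5 windows held the core. It began 54 bases before the start of Cyp1a1, 76 before Cyp1b1, 170 before Tiparp and 29 before Arnt. Ahrr held 3 copies, beginning 107, 82 and 27 bases before its start. Distances run from the RefSeq start next to each window; for Arnt, Cyp1b1 and Tiparp this differs from the outermost position of the gene in the deposited table, which is the one given with each gene in the following paragraphs. Of 32851 promoter windows of the same length, 28.2% held the core on either strand and 2.77% held at least 3 copies. The longer form TNGCGTG, which contains the core, was found in the Ahrr window alone among the 5, against 4.10% of all windows. These shares are over all windows and are not matched for base composition, so no enrichment is read from them. A match of letters shows no binding.

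The libraries held 47335736 to 49743762 estimated counts. Cd4 and Cd3e were detected in all 6. Cd4 was lowest in KO 1, at 246 CPM (read counts scaled to library size with TMM factors), against 380 to 634 CPM in the others. Cd3e ran from 163 to 222 CPM, with KO 1 the highest. The Il17a level was 0 to 1.11 CPM in KO libraries and 107.8 to 211.1 CPM in WT libraries. Libraries of the same number resembled each other across genotypes. Both number 1 libraries stood apart in CD8 T cell markers, with a summed level of 658 CPM in KO 1 and 423 CPM in WT 1, against 71.3 to 114 CPM in the other 4. Xist was at 2.58 and 0 CPM in KO 1 and KO 2 and at 567 to 664 CPM in KO 3 and the WT libraries. Ddx3y, a gene of the Y chromosome, was at 44.5 and 38.0 CPM in KO 1 and KO 2. It was at 0 to 0.452 CPM in KO 3 and the WT libraries. KO 1 and KO 2 thus had the pattern of male cells and the rest that of female cells. Genotype and sex cannot be told apart in numbers 1 and 2, for any gene, and only pair 3 was alike in sex. In such bulk RNA, fewer cells of a type and less RNA per cell cannot be told apart either.

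The receptor and its partner were well expressed and the P450 targets were scarce, at 0 to 53.9 estimated counts per library. Per transcript length, Maf led with 45.7 ± 15.4 TPM (counts per transcript length, scaled to the same total in each library; mean and SD over 6 libraries). Ahr followed with 14.7 ± 8.61 TPM, Arnt with 14.3 ± 3.69 TPM and Tiparp with 9.91 ± 5.81 TPM, and the ranges of these neighbours in the order overlapped. Ahrr was at 0.765 ± 0.358 TPM, below the lowest Tiparp value of 4.74 TPM. Cyp1a1 was at 0.199 ± 0.149 TPM and Cyp1b1 at 0.0549 ± 0.04996 TPM. The highest Cyp1a1 value, 0.396 TPM, lay under the lowest Ahrr value, 0.442 TPM, while Cyp1a1 and Cyp1b1 overlapped each other. So the P450 transcripts that serve as the usual readout of AHR activity were the scarcest of the 7, in both genotypes.

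**Figure D1:**
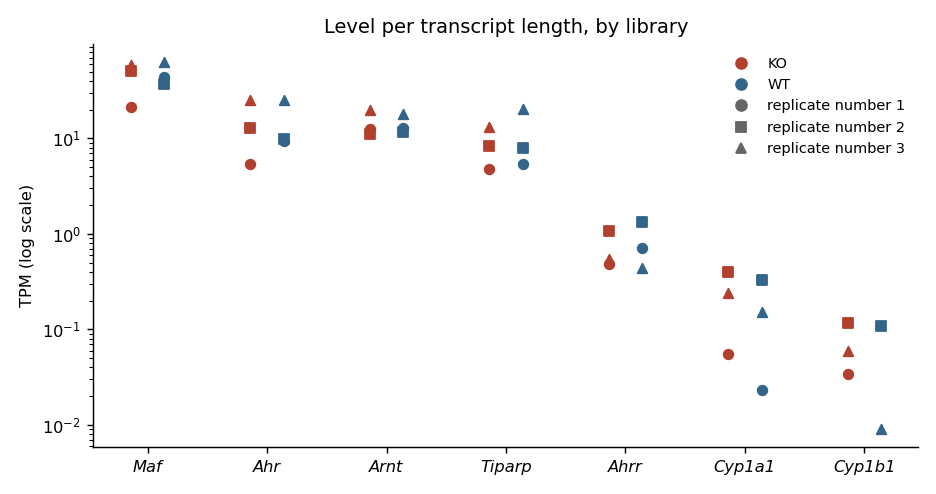
Level of each member per transcript length in TPM on a log axis, one point per library, KO left of WT, with the shape giving the replicate number. Maf, Ahr, Arnt and Tiparp lie at 4.74 TPM or more, whereas Ahrr, Cyp1a1 and Cyp1b1 lie below 1.33 TPM; Cyp1b1 in WT 1 is at 0 and is not drawn.

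Ahr (ENSMUSG00000019256, chromosome 12, 35497974 to 35535038, minus strand, GRCm38) encodes the receptor. It was at 28.7, 71.6 and 144 CPM in KO libraries 1, 2 and 3, against 53.7, 64.6 and 139 CPM in WT libraries 1, 2 and 3. The groups overlapped almost wholly, and in both the number 1 library was lowest and the number 3 library highest. The log2 change was -0.07 (SE 0.60), with an adjusted p of 1 in edgeR's quasi-likelihood test with Benjamini-Hochberg adjustment over 15121 genes. Within the numbers, the log2 ratio of KO over WT (of CPM + 0.5) was -0.89 in pair 1, 0.15 in pair 2 and 0.05 in pair 3. With both number 1 libraries left out the change was 0.08. Nearly all Ahr counts, 98.7% to 99.5%, were assigned to the full-length transcript Ahr-001 in every library.

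Arnt (ENSMUSG00000015522, chromosome 3, 95434388 to 95497240, plus strand), the partner that AHR shares with the hypoxia factors, was the steadiest member. It was at 48.7, 47.7 and 55.9 CPM in KO libraries, against 54.9, 57.6 and 65.5 CPM in WT libraries. Each KO library lay below its WT partner, by log2 ratios of -0.17, -0.27 and -0.22, although the ranges of the groups met between 54.9 and 55.9 CPM. The log2 change was -0.22 (SE 0.13) with an adjusted p of 1 in edgeR. With the replicate number as a block, edgeR gave the same change with SE 0.08, a p of 0.0386 before adjustment and 0.490 after it, so Arnt did not pass.

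The Arnt locus had 11 annotated transcripts, of which Arnt-202 took 77.6%, 83.5% and 66.2% of the estimated counts in KO libraries and 80.1%, 85.4% and 64.2% in WT libraries. The mean difference between genotypes was -0.813 percentage points, with an exact 2-sided permutation p of 0.9, where 3 against 3 libraries allow no p below 0.1. The shorter coding transcript Arnt-001 followed the numbers. It held 98.0, 0.0211 and 279 estimated counts in KO libraries 1, 2 and 3, against 113, 3.00e-06 and 489 in WT libraries 1, 2 and 3. Both number 2 libraries were thus at practically 0. These transcripts share most of their exons, and how reads were split among them is an estimate.

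The 2 brakes of the pathway differed in how they tracked the receptor. Tiparp (ENSMUSG00000034640, chromosome 3, 65528410 to 65555145, plus strand) encodes an ADP-ribosyltransferase that marks AHR for loss. It was at 18.6, 33.6 and 53.3 CPM in KO libraries, against 22.2, 37.1 and 71.3 CPM in WT libraries. Levels followed the numbers in the same order as Ahr, and each KO library lay below its WT partner, by log2 ratios of -0.25, -0.14 and -0.42. Its change was -0.31 on the log2 scale (SE 0.51) with an adjusted p of 1 in edgeR. With the block, edgeR gave -0.27 (SE 0.09), with a p of 0.0301 before and 0.471 after adjustment. Among the other members, the Tiparp profile was the nearest to that of Ahr, with a root-mean-square difference of 0.27 on the log2 scale over the 6 libraries.

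Ahrr (ENSMUSG00000021575, chromosome 13, 74211118 to 74292331, minus strand) encodes a repressor that competes with AHR for ARNT. It was at 2.39, 5.42 and 2.81 CPM in KO libraries, against 3.74, 7.73 and 2.15 CPM in WT libraries. The number 2 library was the highest of each genotype, and the groups overlapped. The pair log2 ratios were -0.55, -0.48 and 0.32, so the genotypes differed one way in pairs 1 and 2 and the other way in pair 3. Between genotypes Ahrr changed by -0.36 on the log2 scale (SE 0.55) with an adjusted p of 1 in edgeR. Of the other members, Ahrr lay farthest from Ahr on the log2(CPM + 0.5) scale, with a root-mean-square difference of 1.06. The added 0.5 flattens the scarce Cyp1a1 and Cyp1b1 far more than Ahrr, so this last place is given for that scale only, and no other was tried.

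Cyp1a1 (ENSMUSG00000032315, chromosome 9, 57697613 to 57703822, plus strand), the classic AHR target, rested on 7.57, 53.9 and 33.5 estimated counts in KO libraries and on 3.24, 46.4 and 19.4 in WT libraries. These are 0.156, 1.11 and 0.688 CPM in KO libraries, against 0.0616, 1.04 and 0.397 CPM in WT libraries. The KO library was the higher one in 3 of 3 pairs, with log2 ratios of 0.22, 0.06 and 0.41 on the CPM + 0.5 scale, which understates changes at such levels. The spread between numbers was wider than any of these: the highest library held 17.9 times the CPM of the lowest. The log2 change was 0.38 (SE 1.05) with an adjusted p of 1 in edgeR. Without KO 2 it turned to -0.25, and without WT 1 to -0.13.

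Cyp1b1 (ENSMUSG00000024087, chromosome 17, 79706953 to 79715041, minus strand), the second P450 target, was scarcer still. It held 9.17, 31.3 and 16.1 estimated counts in KO libraries, against 0, 30.5 and 2.29 in WT libraries. In CPM the values were 0.176, 0.634 and 0.324 in KO libraries, against 0, 0.676 and 0.0418 in WT libraries. WT 1 and WT 3 lay at or under the limit of 3 counts that a count of 0 allows, which is 0.0616 CPM in WT 1 and 0.0627 CPM in WT 3. The number 2 libraries of both genotypes were nearly equal. Cyp1b1 had a log2 change of 0.66 (SE 1.40) with an adjusted p of 1 in edgeR. Over the alternatives it ran from 0.05 to 4.14, so its size was not fixed at this depth.

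Maf (ENSMUSG00000055435, chromosome 8, 115682942 to 115707794, minus strand) was the most abundant member. It was at 94.8, 248.5 and 288 CPM in KO libraries, against 212, 213 and 305 CPM in WT libraries. KO 1 was far below the other 5, and the remaining KO libraries lay within the WT range. The pair log2 ratios were -1.16, 0.22 and -0.08. The log2 change was -0.21 (SE 0.40) with an adjusted p of 1 in edgeR, and with both number 1 libraries left out it was 0.05. KO 1, in which Ahr was lowest as well, was also the library with the highest summed level of CD8 T cell markers (658 CPM), B cell markers (458 CPM, against 51.1 to 206 CPM in the other 5) and NK cell markers (19.96 CPM, against 1.59 to 15.9 CPM). Their part in the low Maf and Ahr of KO 1 was not tested.

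Maf RNA came in both annotated forms. The longer, Maf-002 (6360 nt), took 53.4%, 60.2% and 58.6% of the estimated counts in KO libraries, against 56.7%, 63.7% and 65.9% in WT libraries. The rest went to Maf-001 (3223 nt). The share was lower in the KO library of each pair, with means of 57.4% ± 3.55 in KO and 62.1% ± 4.83 in WT (SD, n = 3 each), and the exact 2-sided permutation p was 0.300. The mean difference of -4.66 percentage points was -2.66 without KO 1, -2.76 without WT 3 and -7.37 without WT 1. An antisense gene, Gm15655, overlaps the Maf locus on the plus strand and was at 1.02 to 2.66 CPM in KO libraries and 2.07 to 3.11 CPM in WT libraries. The libraries were stranded, but the sources used here do not say whether the counting used strand.

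**Figure D2:**
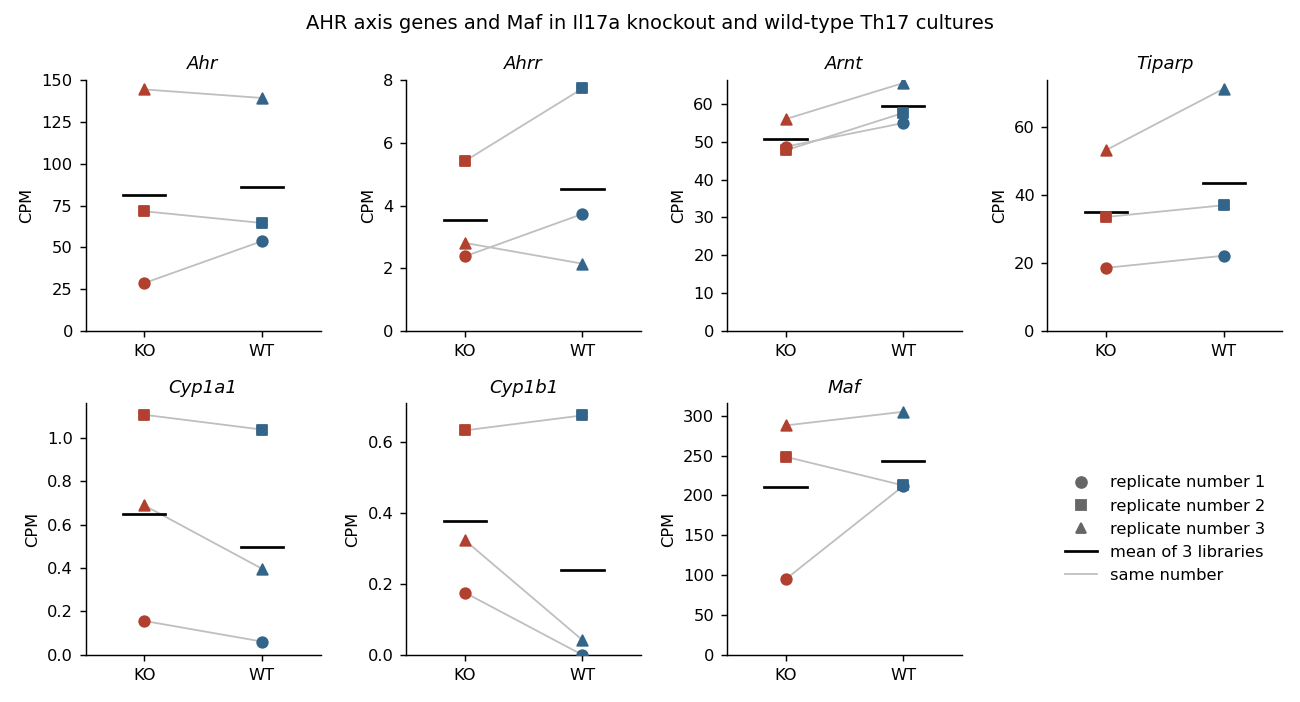
CPM of each member in KO (left) and WT (right) libraries; shapes mark the replicate number, grey lines join libraries of the same number, and black bars are means of 3. The KO and WT points overlap for all 7 members, while Ahr, Tiparp and Maf are highest in number 3 and Ahrr, Cyp1a1 and Cyp1b1 in number 2.

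Of the 7 members, none passed edgeR between the genotypes, with or without the block, and none passed DESeq2 or limma-voom in either form. Over all 15121 genes edgeR called 0 (0%) in both forms, with 1.67% at an unadjusted p under 0.05 without the block and 9.73% with it. Of the members, 0 were at an unadjusted p under 0.05 without the block and 2, Arnt and Tiparp, with it. DESeq2 called 0.086% of genes without the block and 2.52% with it; Cyp1b1 had no adjusted p in the latter fit. The members' median log2 change was -0.21, against 0.01 for all genes tested, with 5 of 7 lower and 2 of 7 higher in KO. For 0 of 7 members did the genotypes' ranges stay apart, against 6.14% of all genes. In CPM, Arnt and Tiparp were lower in KO in all 3 pairs, 2 of 7, as were 16.7% of all genes. In TPM this held for neither, as KO 3 lay above WT 3 for Arnt and KO 2 above WT 2 for Tiparp (8.28 against 7.93 TPM). Cyp1a1 was higher in KO in all 3 pairs, 1 of 7, as were 16.6% of all genes. In pairs 1 and 2 genotype cannot be told apart from sex, which these fits did not include.

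**Figure D3:**
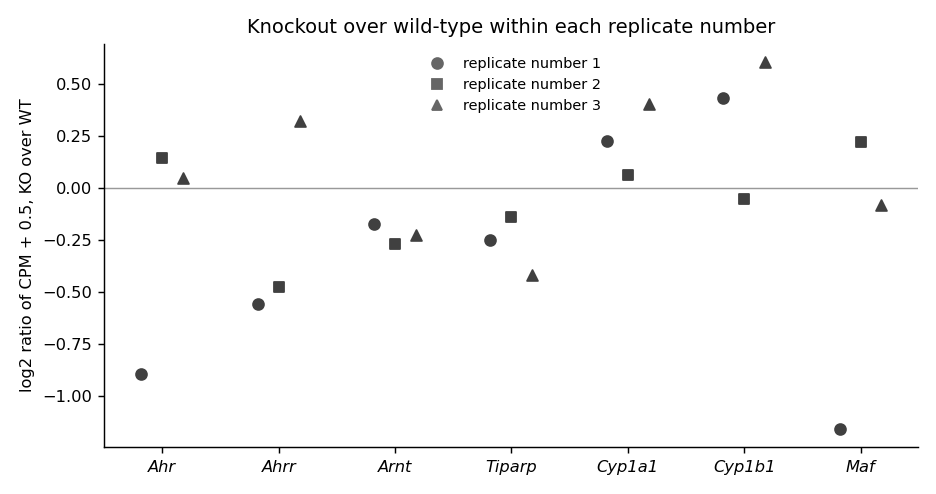
Log2 ratio of KO over WT CPM (each + 0.5) for each member within replicate numbers 1, 2 and 3. Arnt and Tiparp are below 0 and Cyp1a1 above 0 in every pair, while Ahr and Maf are far below 0 in pair 1 alone, at -0.89 and -1.16.

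Differences between the replicate numbers were larger than those between the genotypes. A test of the number in edgeR's blocked fit, added after seeing the data, called 10.2% of all genes and 2 of 7 members. These were Tiparp (adjusted p = 0.00919) and Ahr (adjusted p = 0.0330). The libraries were taken to be paired by number because they resembled each other across all genes, so the test describes that structure and is not separate evidence for it. Both number 3 libraries lay above the other 4 for Ahr, Tiparp and Maf, 3 of 7 members, as for 16.5% of all genes. Both number 2 libraries lay above the other 4 for Ahrr, Cyp1a1 and Cyp1b1, also 3 of 7, as for 10.2% of all genes. Both number 1 libraries lay below the other 4 for Ahr, Tiparp, Cyp1a1 and Maf, 4 of 7, as for 14.3% of all genes.

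The receptor was thus highest in number 3 and its P450 targets in number 2, in both genotypes. The edgeR test of the number did not call Cyp1a1 (adjusted p = 0.0711) or Cyp1b1 (adjusted p = 0.205). Both rest on 0 to 53.9 counts per library. The summed level of 7 myeloid markers (Itgam, Mpeg1, Clec7a, Lyz2, Csf1r, Cd14 and Adgre1) was highest in the number 2 libraries too, at 188 CPM in KO 2 and 95.1 CPM in WT 2, against 26.7 and 83.7 CPM in the other KO libraries and 8.25 and 45.4 CPM in the other WT libraries. Lyz2 made up most of the number 2 sums, at 115.6 CPM in KO 2 and 58.7 CPM in WT 2, and Mpeg1 was highest in number 1 instead. Of the myeloid markers 6 of 7 were higher in KO in each pair, as were 5 of 6 B cell and 2 of 2 CD8 T cell markers. The same held for 0 of 4 dendritic cell, 0 of 3 NK cell and 0 of 4 regulatory T cell markers. It also held for 1 of 4 T cell identity, 1 of 2 gamma-delta T cell and 1 of 5 stromal markers, and for 16.6% of all tested genes. No myeloid marker was at 0 throughout. The 4 regulatory T cell markers did not share 1 order: Il2ra, which activated T cells also make, and Lrrc32 were highest in number 3 of both genotypes, Foxp3 in number 2 and Ikzf2 in number 1. Their sum, 1210 to 2493 CPM in KO libraries and 1176 to 2747 CPM in WT libraries, was nearly all Il2ra (1140 to 2429 CPM in KO libraries and 1115 to 2628 CPM in WT libraries). Foxp3, the lineage factor of regulatory T cells, was at 11.3, 25.2 and 14.8 CPM in KO libraries, against 14.7, 48.2 and 30.9 CPM in WT libraries. Lrrc32, which encodes the TGF-β docking protein GARP, was at 9.52, 26.9 and 36.9 CPM in KO libraries, against 30.7, 66.4 and 72.8 CPM in WT libraries. Both were lower in KO in each pair, with log2 changes of -0.81 (SE 0.19) and -1.33 (SE 0.18) in DESeq2 with the block (adjusted p 0.00286 and 1.31e-10), and neither passed edgeR with the block (adjusted p 0.366 and 0.220). Stromal markers, of cells that can make Cyp1b1, summed to 1.92 to 3.32 CPM in all libraries, with Col3a1 and Pdgfra at 0 throughout. The part of other cells in the levels of the members was not tested.

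Genes whose level moved most like that of Ahr were looked for among 8924 others with a mean of at least 10 CPM, by the root-mean-square difference of centred log2(CPM + 0.5) values over the 6 libraries. The nearest was Rora, which encodes RORα, a nuclear receptor of Th17 cells, at a difference of 0.0997, where the median gene was at 0.817. Rora was at 43.7, 117 and 208 CPM in KO libraries, against 75.4, 87.0 and 188 CPM in WT libraries. Arrb1, a β-arrestin gene, came next at 0.167. Il6ra, the IL-6 receptor chain, was the third at 0.186.

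For Maf, the nearest was B3gnt8, a glycosyltransferase gene, at 0.128, and Gm20390 was at 0.164; the median gene was at 0.590. B3gnt8 was at 4.09, 13.8 and 12.9 CPM in KO libraries, against 8.93, 10.3 and 16.2 CPM in WT libraries, with a low value in KO 1 like that of Maf. These are descriptions over 6 libraries that share their number structure. Gm20390 overlaps other genes on its strand, so its estimate is uncertain.

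**Figure D4:**
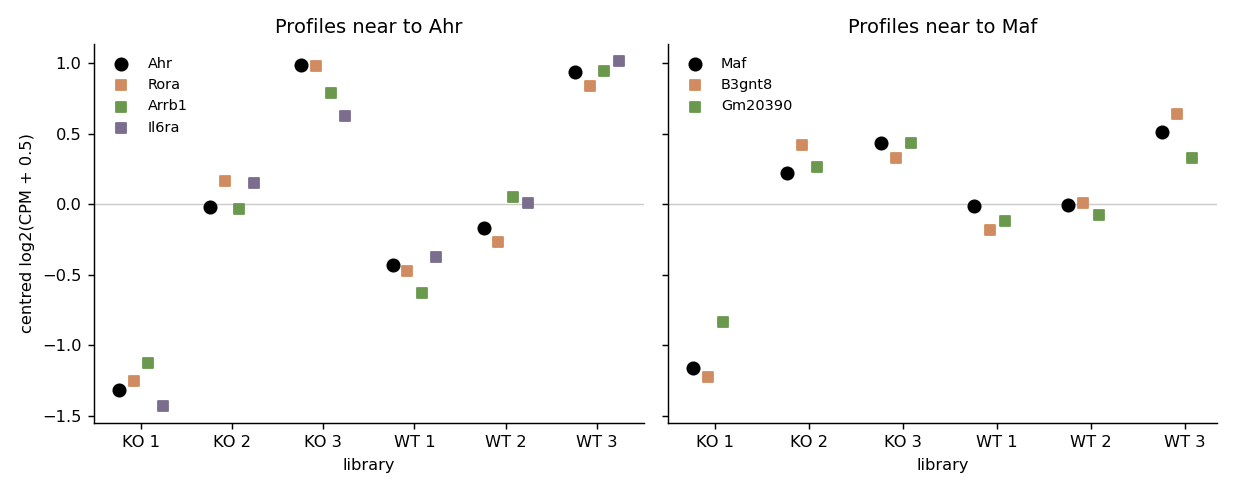
Centred log2(CPM + 0.5) of Ahr (left panel) and Maf (right panel) with genes near to each, by library, KO libraries left of WT libraries. Rora differs from Ahr by 0.0997 and B3gnt8 from Maf by 0.128 (root mean square), and Maf and the 2 genes beside it share the low value in KO 1.

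Beyond the members, the machinery around AHR did not pass the test either. Its cytoplasmic chaperones, 4 of 4 tested, had a median log2 change of 0.10, with 3 higher and 1 lower in KO and 0 called. The HSP90 genes Hsp90ab1 (903 ± 155 TPM) and Hsp90aa1 (364 ± 146 TPM, both over 6 libraries) were the most abundant. Of 11 genes listed for ligand supply, which make, import or break down AHR ligands, 9 were tested. Of these 7 were higher and 2 lower, with a median of 0.42 and 0 called. Slc3a2 (39.7 ± 7.74 TPM) and Slc7a5 (22.6 ± 7.69 TPM), which form the amino acid carrier for tryptophan and kynurenine, led this list, with log2 changes of -0.16 (SE 0.22) and 0.05 (SE 0.36). Kmo, an enzyme of kynurenine breakdown, was at 4.01, 6.12 and 4.33 CPM in KO libraries, against 1.77, 5.28 and 0.585 CPM in WT libraries. Kmo was the higher one in KO in each pair and did not pass edgeR (adjusted p 0.510 with the block). The myeloid and B cell markers, of cells that can carry kynurenine enzymes, were also mostly higher in KO in each pair, 6 of 7 and 5 of 6. Of the dendritic cell markers 0 of 4 were, and of all tested genes 16.6%. The part of other cells in the values of this list was not tested.

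Other AHR-responsive genes, 8 of 11 tested, had a median log2 change of 0.32, with 5 higher, 3 lower and 0 called. Nqo1, an antioxidant enzyme gene, was at 0.938, 1.04 and 0.283 CPM in KO libraries, against 0.0205, 0.293 and 0.230 CPM in WT libraries. Its log2 change was 2.05 (SE 0.95) with an adjusted p of 1 in edgeR, and WT 1 lay under the limit that a count of 0 allows. Il10 was at 14.2, 23.97 and 91.6 CPM in KO libraries, against 17.1, 41.1 and 77.9 CPM in WT libraries. Il21 was at 33.9, 69.4 and 116 CPM in KO libraries, against 67.7, 73.6 and 115 CPM in WT libraries. Both cytokines, which MAF is known to drive as well, were lowest in number 1 and highest in number 3, the order seen for Ahr.

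Relatives of the members gave the same picture. Other genes of the bHLH-PAS family, to which AHR and ARNT belong, were tested for 10 of 11, with a median log2 change of -0.13, 2 higher, 8 lower and 0 called. Hif1a (147 ± 37.0 TPM), another partner of ARNT, had a log2 change of -0.03 (SE 0.23) and the coactivator gene Ncoa3 (21.1 ± 1.45 TPM) of -0.16 (SE 0.12). Arnt2, a close relative of Arnt, was at 1.96, 5.42 and 6.21 CPM in KO libraries, against 1.60, 2.77 and 1.06 CPM in WT libraries. It was the higher one in KO in each pair, with a log2 change of 1.32 (SE 0.56) and an adjusted p of 1 in edgeR. Other MAF and CNC genes, which encode leucine zipper factors that share DNA sites, were tested for 8 of 12, with a median of -0.04, 3 higher, 5 lower and 0 called. Mafg (20.3 ± 3.58 TPM) changed by -0.23 (SE 0.15), Nfe2l1 (19.7 ± 2.82 TPM) by -0.04 (SE 0.15) and Nfe2l2, which encodes NRF2, by -0.18 (SE 0.11).

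MAF-dependent genes of T cells were all tested, 15 of 15, with a median log2 change of 0.35, 8 higher and 7 lower, and 0 called in edgeR. In DESeq2 with the block 3 rose and 0 fell, where 1.02% of all genes rose and 1.5% fell. The list was drawn up with these calls known, so its count supports nothing further. The 3 were Blk (log2 change 1.11, SE 0.21), Havcr2 (1.36, SE 0.34) and Pdcd1 (0.94, SE 0.21), with DESeq2 adjusted p of 2.26e-05, 0.00620 and 0.00132. Blk encodes a kinase that B cells also make, and 6 B cell markers summed to 458, 184 and 55.0 CPM in KO libraries, against 206, 74.7 and 51.1 CPM in WT libraries; their part in the Blk change was not tested. Havcr2 and Pdcd1 encode the checkpoint receptors TIM-3, which myeloid cells also make, and PD-1, which CD8 T cells also make. Havcr2 was at 4.54, 11.8 and 4.11 CPM in KO libraries, against 2.61, 4.71 and 1.00 CPM in WT libraries, while the myeloid markers summed to 83.7, 188 and 26.7 CPM in KO libraries, against 45.4, 95.1 and 8.25 CPM in WT libraries. Both were highest in number 2 and higher in KO in each pair. Pdcd1 was at 212, 47.99 and 56.5 CPM in KO libraries, against 69.6, 31.8 and 36.1 CPM in WT libraries, while the 2 CD8 T cell markers summed to 658, 114 and 112 CPM in KO libraries, against 423, 92.6 and 71.3 CPM in WT libraries. Both were highest in number 1 and higher in KO in each pair, and the part of other cells in these 2 calls was not tested. The most abundant of the list, Lag3 (189 ± 99.7 TPM) and Tigit (66.6 ± 37.7 TPM), had DESeq2 blocked changes of 0.05 (SE 0.16) and 0.22 (SE 0.17). At an unadjusted p under 0.05, edgeR without the block held 1 of 15 genes of this list and 0 of the other 5 lists, against 1.67% of all genes. With the block it held 6 of 15 genes of this list, against 9.73% of all genes. It then held 0 of 4 chaperone, 0 of 8 other AHR-responsive and 1 of 9 ligand supply genes. Among relatives of the members it held 2 of 10 bHLH-PAS and 2 of 8 MAF and CNC genes. All 6 lists were drawn up with earlier results of these data known, so these counts support nothing further. Apart from the 3 DESeq2 calls, DESeq2 and limma-voom called 0 genes of the 6 lists, with or without the block.

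**Figure D5:**
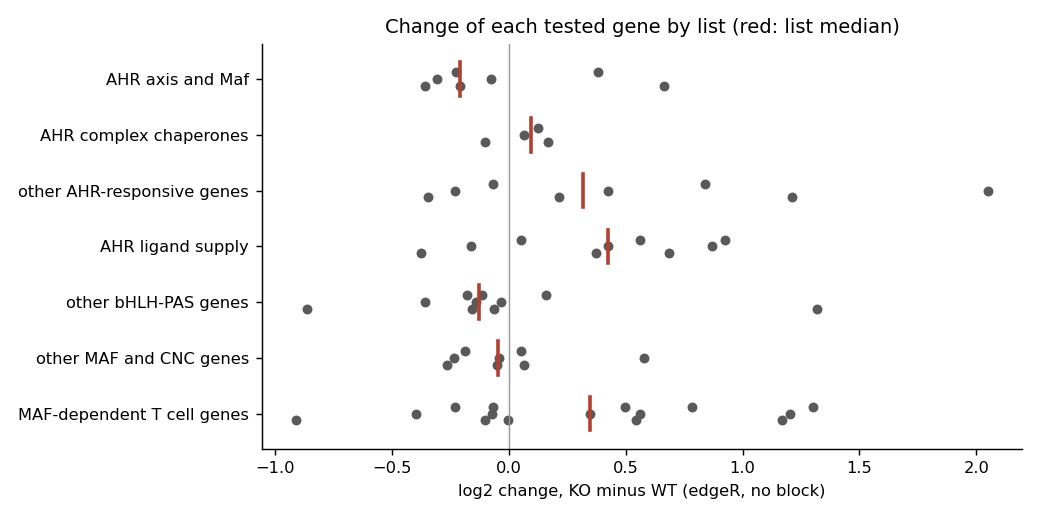
Log2 change, KO minus WT, from edgeR without the block for each tested gene, one row per list, with the list median in red. The medians run from -0.21 for the 7 members to 0.42 for the ligand supply genes, and 0 genes passed in this fit.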

How the data were processed

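Stranded mRNA libraries of 6 cultures were sequenced, per the labels' protocols. The deposited table holds the authors' estimated counts per transcript, with transcript length and GC content as a fraction, per the file headers; GC content was not used. The submitters' processing notes name Bowtie2 2.1.0, eXpress 1.3.1 and the GRCm38 build; the release of the annotation and any settings were not stated there.

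Estimated counts were summed per gene and rounded. KO was compared with WT by edgeR 4.0.16's quasi-likelihood test (R 4.3.3; TMM, filterByExpr, Benjamini-Hochberg, threshold 0.05) on 15121 genes, and likewise per transcript on 36508 transcripts. DESeq2 1.42.0, limma-voom (limma 3.58.1), a replicate block, other scalings, no filter and left-out libraries were alternatives. TPM was computed from counts divided by length. Totals of 47335736 to 49743762 estimated counts put the limit of a count of 0 (3 counts, counting error only) at about 0.0587 to 0.0676 CPM. Libraries differed from each other by more than counting noise in all pairs (chi-square over its degrees of freedom 55.8 to 273.4). The gene-level fits were tested on simulated counts.

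Numbers were taken to pair the libraries: deviations from genotype means correlated across genes at 0.602, 0.447 and 0.641 within numbers and at -0.174 to -0.465 between them. The 3 deviations of a genotype sum to 0 for each gene. Positive values within numbers therefore force negative ones between them on the whole, and the latter are no separate evidence. The labels do not say whether the cultures came from separate animals. By Xist and Ddx3y, KO 3 cannot have come from the same animal as KO 1 and KO 2. For the other libraries this is unknown, so p-values measure the spread between these samples.

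The members and lists were chosen with earlier results of these data known. Named beside the members were, per list, genes called in any fit of all 6 libraries, the 2 with the highest TPM and the 1 with the smallest p. Of the listed genes, Trdc had no match and was not analysed here; Adgre1 was matched by its gene ID. Some genes that the rule for named genes picked are not reported here.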

Additional observations from a re-analysis of the deposited data

How the results depend on the processing

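The count of called members was 0 under all 21 alternatives run for it. The count of called genes, 0 in edgeR, was 13 in DESeq2, 381 in DESeq2 with the replicate block, 8 in edgeR with the block without replicate 1, and 185, 262 and 144 in DESeq2 with the block without replicate 1, 2 and 3; it ran from 0 to 1 without single libraries. The count of called MAF-dependent genes, also 0 in edgeR, was 3 in DESeq2 with the block and 3, 2 and 2 there without replicate 1, 2 and 3. With all 6 libraries, the block changed the call of no gene in edgeR; without replicate 1, edgeR called 8 genes with it and 0 without it. Other calls changed by the block are those of DESeq2 above. The 2 calls between replicate numbers were also 2 with RLE scaling and in limma-voom, where the count over all genes was 1553 and 1991, against 1547.

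Signs of uncalled changes moved with single libraries. Without replicate 1 the Ahr change was 0.101 in edgeR with the block, 0.105 in DESeq2 with the block and 0.0841 in edgeR without it, against -0.07; that of Maf was 0.0717, 0.0757 and 0.0524, against -0.21. Without KO 1 the Ahr change was 0.316 and that of Maf 0.130; without WT 3 that of Ahr was 0.457 and of Tiparp 0.239; without WT 2 that of Ahrr was 0.274; that of Cyp1a1 was -0.253 without KO 2 and -0.133 without WT 1. Without single libraries the change ran from -0.80 to 0.46 for Ahr, -0.82 to 0.27 for Ahrr, -0.32 to -0.16 for Arnt, -0.76 to 0.24 for Tiparp, -0.25 to 1.498 for Cyp1a1, 0.05 to 4.03 for Cyp1b1 and -0.52 to 0.13 for Maf. The difference in share of the main transcript ran from -6.98 to 3.98 percentage points for Arnt, from -7.37 to -2.66 for Maf, from 0.0704 to 4.72 for Ahrr, from -0.395 to -0.114 for Ahr and from 0 to 0.947 for Tiparp. The cause was not tested. Levels in TPM moved by less than their spread without immunoglobulin and mitochondrial genes. Depth limits Cyp1a1 and Cyp1b1, which rest on 0 to 53.9 counts per library.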

Other observations

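Il22, a cytokine gene that AHR is known to drive in Th17 cells, did not follow the receptor across the cultures. It was at 89.9, 5.34 and 5.34 CPM in KO libraries 1, 2 and 3, against 36.2, 6.49 and 13.4 CPM in WT libraries 1, 2 and 3. Il22 was thus highest in number 1 of both genotypes, where Ahr was lowest. The CD8 T cell markers were highest there too, with sums of 658 CPM in KO 1 and 423 CPM in WT 1, against 71.3 to 114 CPM elsewhere. The part of other cells in the Il22 levels was not tested. Icos, a costimulatory receptor gene of the MAF-dependent list, was at 66.2, 152 and 96.3 CPM in KO libraries, against 73.7, 224 and 116 CPM in WT libraries, lower in KO in each pair. Il23r, the IL-23 receptor chain, was at 5.28, 2.09 and 3.32 CPM in KO libraries, against 4.004, 1.40 and 2.17 CPM in WT libraries, higher in KO in each pair. None of the 3 passed a test between genotypes in any fit of all 6 libraries, and they were chosen after their values were seen.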
